A study of Mus musculus with 14 samples.

Results

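The genes described here are the integrin subunits and the cadherins named Cdh of the mouse, followed in primordial germ cells from E9.5 to E13.5. Members were taken by symbol: Itga or Itgb with a number or letter code, or Cdh with a number, leaving out Cdh5. A gene was represented by the probe set with the highest mean over all 14 arrays, among probe sets annotated with a single symbol. This gave 45 of the 18194 genes in the table, made up of 20 cadherins, 16 integrin alpha subunits and 9 integrin beta subunits.

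Integrins are paired alpha and beta chains that hold cells to laminin, fibronectin, vitronectin and other matrix proteins and link them through talin and kindlin to actin. Cadherins bind like cadherins on neighbouring cells and are coupled to actin by catenins. Primordial germ cells leave the hindgut and migrate to the genital ridges, where they settle and cluster. In mouse embryos, germ cells without Itgb1 colonize the ridges poorly, and E-cadherin, the product of Cdh1, is found on the surface of germ cells.

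Expression was measured on Affymetrix arrays in 7 groups of 2 arrays, which the labels call biological replicates. The groups were E9.5, E10.5 and E11.5, all of unstated sex, and sexed males and females at each of E12.5 and E13.5. From E10.5 on, embryos came from BDF1 mothers and fathers of a B6/CBA mixed background with a stella-EGFP transgene, which every one of these 12 samples therefore shares as the reporter used for sorting. The strain label is "mixed" where it is given, and replicate 1 of both sexes at E12.5 carries none. Cells were released from genital ridges with trypsin and sorted on EGFP. The E9.5 cells were from C57BL/6 embryos of an earlier study, with another RNA kit and no sort described in the sources used here. Each sample started from 5 ng of RNA, given as equal to 500 cells, amplified with 22 cycles of PCR at E9.5 and 12 cycles at every later stage. The stage difference between E10.5 and E9.5 therefore cannot be told apart from strain, kit, cycle number and study. How many embryos or litters went into a sample is not given in the sources used here, so p-values measure only the spread between these samples.

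Of 8 germ cell markers (Dppa3, Pou5f1, Ddx4, Dazl, Dnd1, Tfap2c, Prdm1 and Sox2), 8 were above the table median on every array but E9.5 replicate 2. On that array 7 were, with Dazl at 3.70. Erythroid signal was strong at E9.5, with Hba-x at 12.71 and 11.97. The Y-linked gene Eif2s3y was at 10.67 to 11.53 on arrays of labelled males and 9.32 to 10.20 on those of unstated sex. On arrays of labelled females it was 1.61 and 2.53 at E12.5, and 5.93 and 2.58 at E13.5. Dppa3, the gene known as stella, lay between 13.09 and 13.76 on the log2 signal scale and Pou5f1, a pluripotency factor kept by early germ cells, between 12.44 and 13.09, where the highest signal in the table was 14.04. Array medians ran from 4.66 to 4.80, and replicates correlated across genes at 0.961 to 0.981, with genes not being independent replicates. On E13.5 male replicate 2 and E13.5 female replicate 2, the 3' probe set of Gapdh exceeded the 5' one by 3.16 and 3.09. It was at most 2.53 on the others, so calls of named members at E13.5 that change without these arrays are marked. The lists of partners and cell markers were not refitted without these arrays, so their calls at E13.5 carry no such mark. No detection calls were used, and signals under the table median of 4.72 are called dim. A probe set's signal also depends on its probes, so levels are compared between arrays for a gene and never between genes.

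Of the 45 members, 20 had group means above the table median in all 7 groups, 13 were dim in all 7 and 12 were above it in some groups. Among the alpha subunits, 10 of 16 were above it throughout, namely Itga1, Itga2, Itga2b, Itga3, Itga5, Itga6, Itga8, Itga10, Itgae and Itgav. Among the beta subunits, 4 of 9 were (Itgb1, Itgb3, Itgb5 and Itgb7), and among the cadherins 6 of 20 were (Cdh1, Cdh2, Cdh3, Cdh4, Cdh15 and Cdh22). Members dim throughout included Itgam and Itgax, alpha chains of leukocytes, Itgb4 and Itgb6, beta chains of epithelia, and Cdh17, a cadherin of intestine and liver. The highest signal of any of these 13 on any array was 5.12, for Itgb2l. The map of all members by array shows both kinds.

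**Figure D1:**
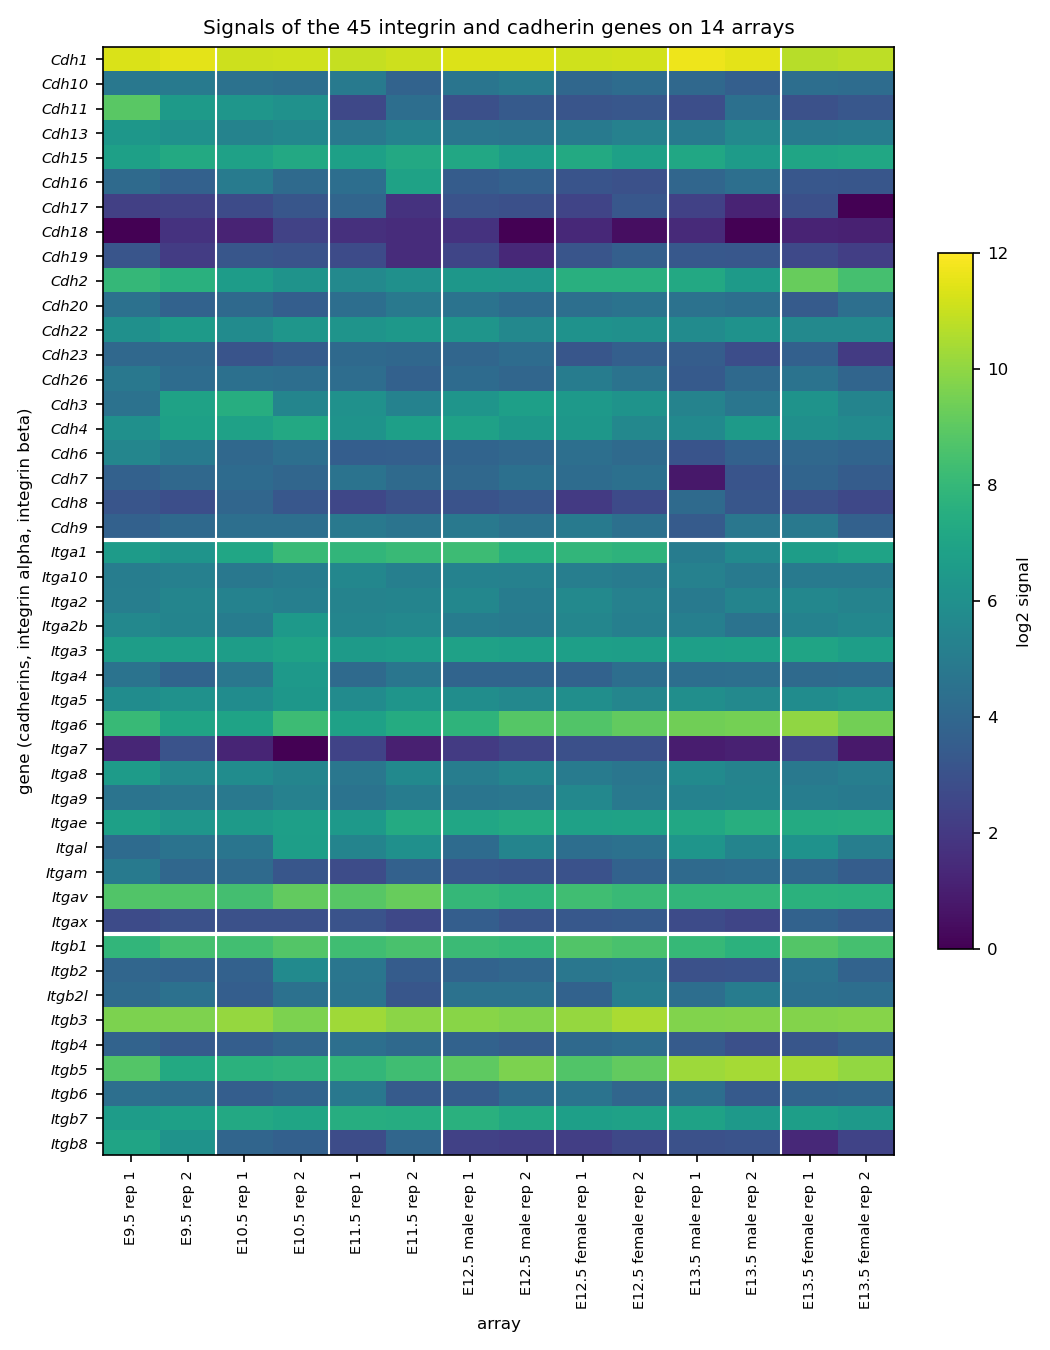
Log2 signal of the 45 members (down, in the order cadherins, integrin alpha, integrin beta) on each of the 14 arrays (across, by stage), coloured from 0 to 12. Cdh1 is bright on every array, between 10.72 and 11.68; Itgb5 and Itga6 brighten from E12.5 on, and Cdh11 and Itgb8 are bright at E9.5 and dim from E11.5 on.

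Over the whole span from E10.5 to E13.5, Itgb5 and Itga6 rose in both sexes, Cdh2 rose in females, Itga1 fell in males, and Itgav and Cdh11 fell in both. In E13.5 females against E10.5, 7 of 45 members passed the test (limma, Benjamini-Hochberg adjusted p under 0.05 over all 18194 genes), 3 higher and 4 lower, where 17.8% of all genes passed. In E13.5 males against E10.5, 6 of 45 passed, 2 higher and 4 lower, where 12.7% of all genes passed. Both shares are near the background. Without E13.5 female replicate 1, 3 members passed in females (Cdh2, Cdh11 and Itgb5), where 10.4% of all genes passed. Without E13.5 male replicate 1, 2 passed in males (Itga1 and Itgb5), where 7.18% of all genes passed. The median log2 difference of members was -0.27 in females and -0.20 in males, beside 0.08 and 0.07 over all genes. After quantile normalization the median over all genes in the female comparison was -0.04, a move of over 0.1. There, 8 members passed, the added one being Itgb7, where 18% of all genes passed. Both comparisons rest on the same pair of E10.5 arrays, so their values are given side by side and are not independent.

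Itgb5 codes for the beta 5 chain, which pairs with the alpha V chain to bind vitronectin. Its log2 signals were 8.80 and 7.28 at E9.5, 7.68 and 7.79 at E10.5, 7.96 and 8.32 at E11.5, 9.04 and 9.62 in males and 8.75 and 9.14 in females of E12.5, and 10.24 and 10.37 in males and 10.40 and 10.04 in females of E13.5. All 4 arrays of E13.5 stood above all others, and all 4 of E12.5 above those of E10.5 and E11.5. In E13.5 females the signal was 5.60-fold that of E10.5 (log2 difference 2.49, SE 0.25, 95% interval 1.93 to 3.04, adjusted p = 0.000114). In E13.5 males it was 5.94-fold that of E10.5 (log2 difference 2.57, SE 0.25, adjusted p = 9.86e-05). Each of these calls held under all 13 alternative settings, the 4 that leave out an array included, with log2 differences between 2.31 and 2.67 in the 2 sexes. The gene's 4 probe sets, all well above the table median, gave 2.42 to 2.52 in females and 2.57 to 2.82 in males. In single steps, E13.5 against E12.5 females gave a log2 difference of 1.28 (adjusted p = 0.0346), a call lost when any 1 of the 4 arrays was left out (adjusted p between 0.0785 and 0.277), and without the 2 arrays of high Gapdh difference (adjusted p = 0.134). The step from E12.5 to E13.5 males gave 0.98 (adjusted p = 0.0841), and that from E11.5 to E12.5 males 1.19 (adjusted p = 0.0597). Males and females differed by 0.09 at E13.5 (95% interval -0.47 to 0.64).

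Itga6, the laminin-binding alpha 6 chain that also marks germline stem cells of the testis, was 8.07 and 7.0 at E9.5, 6.97 and 8.23 at E10.5, 6.85 and 7.38 at E11.5, 7.82 and 8.83 in males and 8.76 and 9.10 in females of E12.5, and 9.40 and 9.49 in males and 10.01 and 9.45 in females of E13.5. The 4 arrays of E13.5 were again above all others, while the 2 arrays of E10.5 lay more than a log2 unit apart. E13.5 females exceeded E10.5 by 2.13 (SE 0.43, 4.38-fold, adjusted p = 0.00606), and without E13.5 female replicate 1 the adjusted p was 0.0633. E13.5 males exceeded E10.5 by 1.85 (SE 0.43, 3.59-fold, adjusted p = 0.0177). That male call was lost without E10.5 replicate 1 (log2 difference 1.22), without either E13.5 male array, and without the 2 arrays of high Gapdh difference (adjusted p = 0.132). At the step from E11.5, E12.5 males were higher by 1.21 (adjusted p = 0.345) and E12.5 females by 1.82 (adjusted p = 0.0662), and neither passed.

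Itgav codes for the alpha V chain, the partner of several beta chains, among them those of Itgb1, Itgb3, Itgb5 and Itgb8. Its signals were 8.72 and 8.70 at E9.5, 8.42 and 9.11 at E10.5, 8.86 and 9.20 at E11.5, 8.01 and 7.79 in males and 8.31 and 8.11 in females of E12.5, and 7.89 and 7.90 in males and 7.67 and 7.64 in females of E13.5. No array of E12.5 or E13.5 reached the lowest array of the earlier stages. The fall against E10.5 was -1.11 in E13.5 females (SE 0.25, 2.16-fold lower, adjusted p = 0.0104) and -0.87 in E13.5 males (SE 0.25, 1.83-fold lower, adjusted p = 0.0442). Each call was lost without E10.5 replicate 2 (log2 difference -0.77 in females and -0.53 in males), without either E13.5 array of that sex, and without the 2 arrays of high Gapdh difference. With the mean of the gene's 5 probe sets, 3 of which have a mean under the table median, the differences were -0.31 in each sex (adjusted p = 0.57 and 0.591). Itgb3, the other well known partner of the alpha V chain, stayed between 9.61 and 10.49 on all arrays and passed in no comparison. Its log2 difference from E10.5 was -0.04 in E13.5 females (95% interval -0.52 to 0.45) and -0.11 in E13.5 males (95% interval -0.59 to 0.38).

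**Figure D2:**
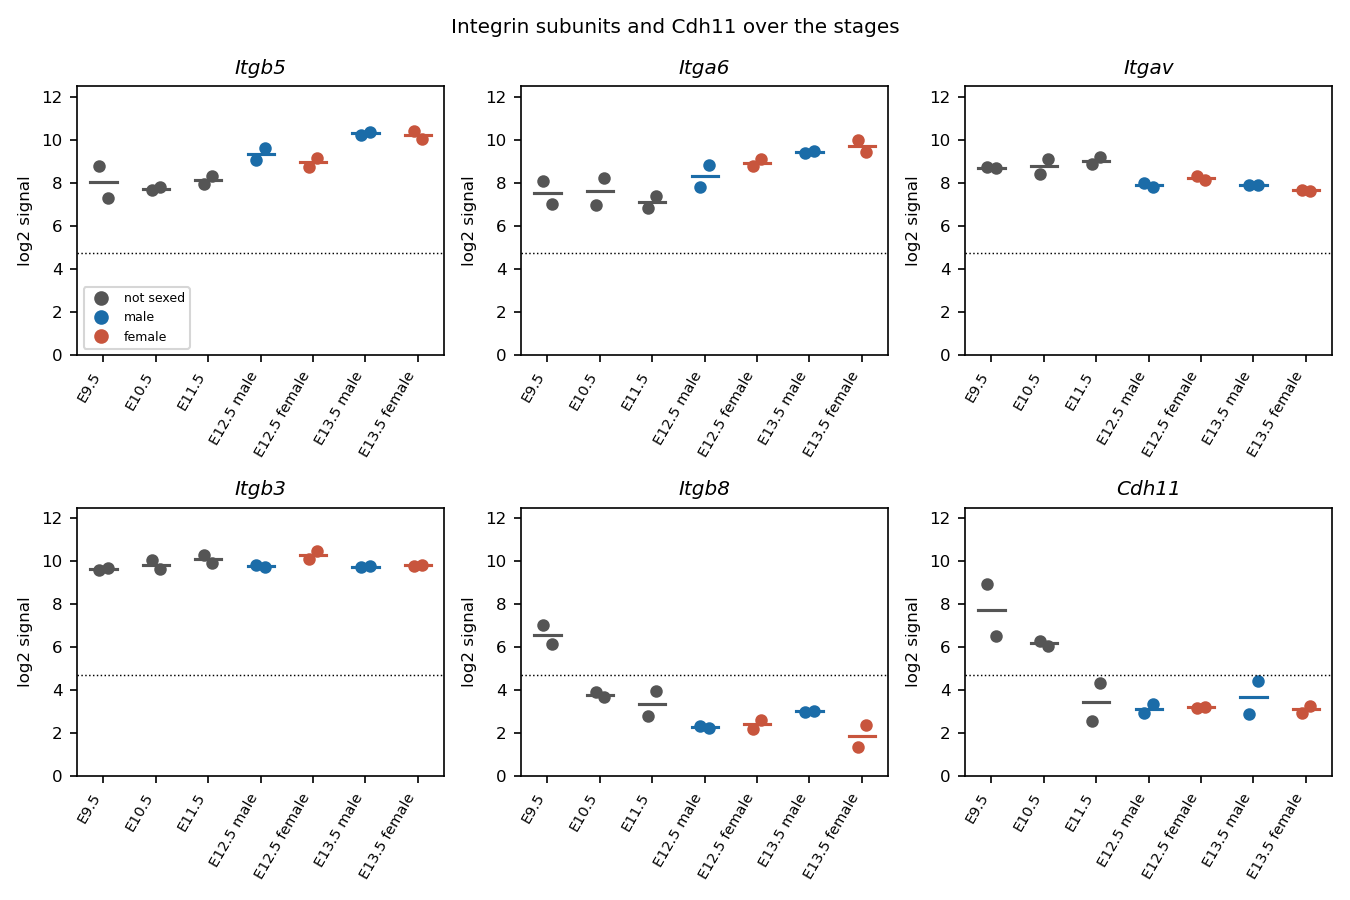
Log2 signal by group for 5 integrin subunits and Cdh11, with a point for each array, a bar for the mean of the 2 arrays and a dotted line at the table median of 4.72. Itgb5 and Itga6 are highest at E13.5 in both sexes, Itgav is lower from E12.5 on, Itgb3 stays between 9.61 and 10.49, and Itgb8 and Cdh11 are above the line in the earliest groups only.

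Promoter windows from RefSeq (GRCm38.p6), the 250 bases before the start of a gene, were at hand for 29 of the 45 members. Shown here are those of Itgb5, which rose in both sexes, Itgav, which fell in both, and Itga1, which passed as lower in males only. GC boxes (GGGCGG or its reverse complement) are in capitals.
Itgb5, chr16:33829415-33829664, plus strand: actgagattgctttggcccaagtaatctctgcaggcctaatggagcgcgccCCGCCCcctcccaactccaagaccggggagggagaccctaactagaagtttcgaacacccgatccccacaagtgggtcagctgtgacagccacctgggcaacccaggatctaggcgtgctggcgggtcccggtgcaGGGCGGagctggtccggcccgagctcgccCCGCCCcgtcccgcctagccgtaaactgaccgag
Itgav, chr2:83724147-83724396, plus strand: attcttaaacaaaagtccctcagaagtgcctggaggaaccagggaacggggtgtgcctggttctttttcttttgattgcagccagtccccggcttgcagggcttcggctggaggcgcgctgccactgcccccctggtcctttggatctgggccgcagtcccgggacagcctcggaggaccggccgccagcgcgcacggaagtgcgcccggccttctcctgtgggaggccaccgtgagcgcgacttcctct
Itga1, chr13:115101965-115102214, minus strand: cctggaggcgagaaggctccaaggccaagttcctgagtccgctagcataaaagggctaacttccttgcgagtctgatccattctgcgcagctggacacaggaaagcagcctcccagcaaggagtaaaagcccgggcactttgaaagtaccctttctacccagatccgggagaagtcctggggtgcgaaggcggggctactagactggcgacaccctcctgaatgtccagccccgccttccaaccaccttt
The Itgb5 window holds 18 CpG and 3 GC boxes, the Itgav window 18 CpG and 0 GC boxes, and the Itga1 window 10 CpG and 0 GC boxes. Over all 32851 promoter windows of that length the median was 6 CpG, 32.7% held a GC box on either strand and 8.5% held 3 or more. Of the 33 windows of members, 11 held a GC box and the median was 8 CpG. The Cdh15 window and an Itga3 window also held 3 GC boxes, and neither gene passed in any comparison. These counts describe letters in the windows and say nothing about which factors bind there.

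Between the sexes at E13.5, Cdh1 was higher in males, and Cdh2 and Itga1 were lower in males. These were the 3 of 45 members that passed for E13.5 males against E13.5 females, where 10.2% of all genes passed. The median log2 difference was 0.02 over the members and -0.02 over all genes. After quantile normalization 2 passed, 1 higher and 1 lower, where 10% of all genes passed, and Itga1 was no longer among them. Without E13.5 male replicate 1, Cdh2 alone passed, where 5.03% of all genes passed.

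Cdh2 codes for N-cadherin, the cadherin of neural and mesenchymal cells. Its signals were 8.0 and 7.62 at E9.5, 6.62 and 6.15 at E10.5, 5.63 and 6.04 at E11.5, 6.35 and 6.32 in males and 7.58 and 7.55 in females of E12.5, and 7.23 and 6.54 in males and 9.20 and 8.48 in females of E13.5. Each female array was above each male array of its stage, and the E13.5 female arrays were the highest of the series. E13.5 males were lower than E13.5 females by a log2 difference of -1.96 (SE 0.32, 95% interval -2.66 to -1.25, 3.88-fold lower, adjusted p = 0.00309), and E13.5 females exceeded E10.5 by 2.46 (SE 0.32, 5.48-fold, adjusted p = 0.000464). These 2 calls held under all 13 alternative settings each. E12.5 males against E12.5 females gave -1.23 (adjusted p = 0.084), which did not pass. Against the E11.5 arrays, which both sexes share as their baseline, E12.5 males differed by 0.50 (adjusted p = 0.707), and E12.5 females were 3.32-fold higher (log2 difference 1.73, SE 0.32, adjusted p = 0.0253). That E12.5 female call was lost without any 1 of its 4 arrays. The gene's other probe set gave 2.18 for E13.5 females against E10.5 and -2.44 for E13.5 males against E13.5 females. For E13.5 males against E10.5 the probe sets differed in sign, with 0.50 (adjusted p = 0.377) on the one used and -0.26 on the other.

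Cdh1, E-cadherin, was 11.33 and 11.49 at E9.5, 11.10 and 11.12 at E10.5, 10.95 and 11.10 at E11.5, 11.36 and 11.37 in males and 11.11 and 11.17 in females of E12.5, and 11.68 and 11.49 in males and 10.72 and 10.80 in females of E13.5. The E13.5 female arrays were the lowest of the series, and male arrays were above female arrays at both stages. E13.5 males exceeded E13.5 females 1.77-fold (log2 difference 0.83, SE 0.15, 95% interval 0.50 to 1.15, adjusted p = 0.0053). The adjusted p was 0.0589 without E13.5 male replicate 1 and 0.0592 without the 2 arrays of high Gapdh difference, with log2 differences of 0.73 and 0.96. At E12.5 the male minus female difference was 0.23 (adjusted p = 0.639).

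Itga1 codes for the collagen-binding alpha 1 chain, which pairs with the beta 1 chain. It was 6.60 and 6.19 at E9.5, 7.10 and 8.13 at E10.5, 7.90 and 8.15 at E11.5, 8.23 and 7.59 in males and 7.89 and 7.78 in females of E12.5, and 5.06 and 5.72 in males and 6.70 and 6.98 in females of E13.5. The E13.5 male arrays were the lowest of the series. Against E12.5 males, E13.5 males were 5.74-fold lower (log2 difference -2.52, SE 0.36, adjusted p = 0.00924), and this was the only member of 45 to pass in that step, where 2.10% of all genes passed. That call was lost without E12.5 male replicate 1, without E13.5 male replicate 1, and without the 2 arrays of high Gapdh difference (adjusted p = 0.0861). With the mean of both probe sets the difference in that step was -0.33 (adjusted p = 0.842), since the second probe set, dim on every array, moved by 1.87. Against E10.5, E13.5 males were 4.68-fold lower (log2 difference -2.23, SE 0.36, adjusted p = 0.00234), a call that held with each of the 4 arrays left out in turn and was lost with the mean of both probe sets (log2 difference -1.03, adjusted p = 0.22). Against E13.5 females, E13.5 males were 2.73-fold lower (log2 difference -1.45, SE 0.36, adjusted p = 0.0291), and that call was lost without either E13.5 female array, without E13.5 male replicate 1, after quantile normalization and without the 2 arrays of high Gapdh difference. That second probe set also moved the other way between the sexes at E13.5 (2.14), and with the mean of both probe sets the difference was 0.34 (adjusted p = 0.78).

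Itgb1, the common beta chain of collagen, laminin and fibronectin receptors, was 7.91 and 8.48 at E9.5, 8.37 and 8.80 at E10.5, 8.33 and 8.54 at E11.5, 8.20 and 8.06 in males and 8.76 and 8.56 in females of E12.5, and 8.06 and 7.70 in males and 8.77 and 8.44 in females of E13.5. On the probe set used, male arrays lay below female arrays at each sexed stage. The male minus female differences of -0.53 at E12.5 (adjusted p = 0.366) and -0.73 at E13.5 (adjusted p = 0.0792) did not pass. A probe set of the gene almost as bright gave -0.58 and -0.565. On it, E13.5 males (8.37 and 7.47) and E13.5 females (8.86 and 8.11) overlapped. At E12.5, 0 of 45 members passed between males and females in limma, where 2.39% of all genes passed. There, 5 members had an unadjusted p under 0.05, as did 12.8% of all genes. A fit of the compared groups alone and one with array weights called 1 member each, Cdh2 in both. Those fits called 4.21% and 7.22% of all genes. The change of the male minus female difference between the stages was called for 0 of 45 members in limma, where 0.0110% of all genes were called. It was 0.60 for Cdh1 (SE 0.21), -0.73 for Cdh2 (SE 0.45) and -1.53 for Itga1 (SE 0.51). For this change 3 members had an unadjusted p under 0.05, as did 7.42% of all genes, and every alternative setting called 0 members.

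**Figure D3:**
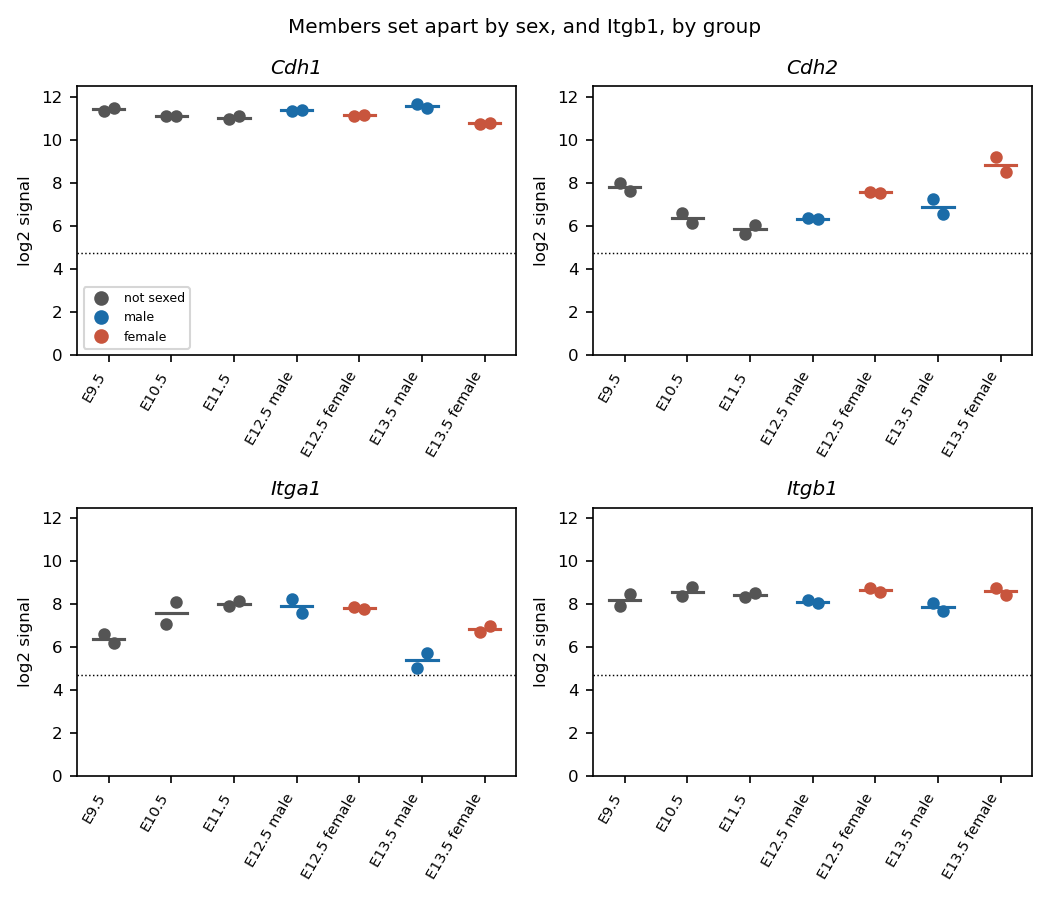
Log2 signal by group for Cdh1, Cdh2, Itga1 and Itgb1, with a point for each array, a bar for the mean of the 2 arrays and a dotted line at the table median of 4.72. At E13.5, the male arrays lie above the female arrays for Cdh1 (11.68 and 11.49 in males, 10.72 and 10.80 in females) and below them for Cdh2, Itga1 and Itgb1, the last without passing the test.

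Some markers of gut and other epithelium also differed between the sexes. Those that passed were lower in males, like Cdh2 and Itga1 at E13.5 and unlike Cdh1. In E13.5 males against E13.5 females, 3 of the 7 genes of that list passed as lower, where 10.2% of all genes passed in either direction: Krt18 (log2 difference -1.99), Foxa1 (-1.79) and Cdx2, which was dim in males at 1.65 and 1.28 and stood at 7.36 and 7.83 in females. The other 4 did not pass, and of these Foxa2 and Sox17 had lower means in males while Krt8 and Krt19 had higher ones. The list's mean signal at that stage was 5.20 and 5.19 in males and 6.70 and 6.63 in females. No listed gene was at 0 on these arrays. At E12.5 the list's mean was 5.11 and 5.15 in males and 6.43 and 6.42 in females. There, 2 of the 7 passed, Cdx2 and Krt18, both lower in males, where 2.39% of all genes passed. Beside the rise of Cdh2 in females, 4 of the 7 were higher in E13.5 females against E10.5, where 17.8% of all genes passed. These were Foxa1 (2.14), Cdx2 (2.09), Foxa2 (1.51) and Krt18 (0.93). In E12.5 females against E11.5, 3 of the 7 were higher (Cdx2, Foxa1 and Krt18), where 1.85% of all genes passed. Other marker lists also had passes between the sexes at E13.5. Of 10 endothelial markers 1 was higher in males (Cldn5, 1.94), and of 8 germ cell markers 1 was lower (Tfap2c, -1.16). Those counts are near the 10.2% of all genes. The part of these genes in the differences of Cdh1, Cdh2 and Itga1 was not tested.

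Before E10.5, Itgb8, the beta 8 chain that pairs with the alpha V chain to activate latent TGF-beta, was the only member of 45 to pass. In E10.5 against E9.5, 1.06% of all genes passed. Itgb8 was 7.03 and 6.16 at E9.5, 3.91 and 3.70 at E10.5, 2.79 and 3.97 at E11.5, 2.34 and 2.24 in males and 2.21 and 2.62 in females of E12.5, and 2.99 and 3.06 in males and 1.38 and 2.40 in females of E13.5. Both E9.5 arrays were above the table median and every later array was dim. E10.5 was 6.92-fold lower in signal than E9.5 (log2 difference -2.79, SE 0.50, adjusted p = 0.0224), and since E10.5 was dim this fold describes signals only. That call was lost without E9.5 replicate 1 (adjusted p = 0.216), without E10.5 replicate 2 (adjusted p = 0.158), and in a fit of the compared groups alone (adjusted p = 0.682). E13.5 females lay below E10.5 (log2 difference -1.92, adjusted p = 0.0272), with both groups dim, and this was lost without either E10.5 array or without E13.5 female replicate 1.

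Cdh11, a cadherin of mesenchyme, was 8.93 and 6.53 at E9.5, 6.29 and 6.07 at E10.5, 2.60 and 4.35 at E11.5, 2.93 and 3.38 in males and 3.16 and 3.25 in females of E12.5, and 2.90 and 4.45 in males and 2.96 and 3.27 in females of E13.5. It was above the table median on all 4 arrays of E9.5 and E10.5 and dim on the other 10. Against E10.5, E13.5 females were 8.37-fold lower in signal (log2 difference -3.07, SE 0.60, adjusted p = 0.00508), a call that held under every setting in which the gene was tested. Against the same E10.5 arrays, E13.5 males were 5.68-fold lower (log2 difference -2.51, SE 0.60, adjusted p = 0.0202), which was lost without either E10.5 array or without E13.5 male replicate 1. E11.5 lay below E10.5 without passing (log2 difference -2.71, adjusted p = 0.181), and the other probe set was dim in mean. Markers of gonadal somatic cells and mesenchyme averaged 5.90 and 5.29 at E9.5, 5.35 and 5.32 at E10.5 and 4.44 to 4.97 on all later arrays, with 14 of 14 measured and none at 0. Of these 14, 3 passed as lower in E13.5 females against E10.5 (Pdgfra, Col1a2 and Col3a1) and 2 in E13.5 males (Col1a2 and Col3a1). Those counts are near the 17.8% and 12.7% of all genes that passed there in either direction. Erythroid markers averaged 9.43 and 8.25 at E9.5, 6.83 and 6.52 at E10.5, and 4.81 or less on later arrays. Of 10 endothelial markers, 6 passed as lower in E13.5 females against E10.5 and 4 in E13.5 males, beside the same 17.8% and 12.7%. In such bulk samples, fewer cells of a type and less RNA per cell cannot be told apart, and the part of other cells in these values was not tested.

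In E11.5 against E10.5, 0 of 45 members passed in limma, where 0.0769% of all genes passed. There, 2 members had an unadjusted p under 0.05, as did 7.07% of all genes, and each alternative setting also called 0 members. The median log2 difference was -0.11 over the members and 0.01 over all genes. In E12.5 males against E11.5, 0 of 45 passed in limma, where 1.0% of all genes passed. There, 5 had an unadjusted p under 0.05, as did 9.36% of all genes. Median centring, and leaving out dim genes, called 1 member each there, Itgb5, array weights called Itgav, and leaving out E11.5 replicate 1 called Cdh16. In E12.5 females against the same E11.5 arrays, 1 of 45 passed (Cdh2), where 1.85% of all genes passed. In E13.5 females against E12.5 females, 1 of 45 passed (Itgb5), where 1.91% of all genes passed.

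For 4 integrin genes, picked after their values were seen, a single array, E10.5 replicate 2, gave the highest signal. Itgb1 (8.80, against 8.37 in E10.5 replicate 1) and Itga5 (6.33, against 5.83) were also highest there. Their next highest arrays were close, at 8.77 for Itgb1 and 6.27 for Itga5, so the feature is not confined to integrin genes of blood cells. E10.5 replicate 2 gave the highest signal of the series for Itga4, the alpha 4 chain (6.46, against 4.76 in E10.5 replicate 1), for Itgal, the alpha chain of LFA-1 (6.73, against 4.66), for Itgb2, its beta chain (5.73, against 3.73), and for Itga2b, the platelet alpha IIb chain (6.47, against 5.04). Other integrin genes of blood cells did not follow: on that array Itgam was 3.20, against 4.13 on E10.5 replicate 1, Itgb3 9.62, against 10.08, Itgb7 7.06, against 7.23, and Itgax 2.96 on both. On E10.5 replicate 2 the leukocyte list had its highest mean, 5.80, against 4.88 to 5.59 on the other 13 arrays, and the platelet list its highest, 4.88. Within the leukocyte list, Coro1a was 7.51 there, against 5.78 on replicate 1, Csf1r 6.12, against 4.87, and Lyz2 6.34, against 5.26. Fcer1g was 4.56, against 3.75, Laptm5 7.36, against 6.91, and Cd52 6.31, against 6.24. Ptprc was lower at 3.12, against 3.85, and so was Tyrobp at 5.08, against 5.78. Each of the 5 measured platelet markers was higher there, among them Ppbp (4.68, against 1.90) and Gp6 (4.07, against 2.35), both dim. The part of these genes in the signals was not tested. In E10.5 against E9.5, Itga4 differed by 1.38 (adjusted p = 0.227) and Itgal by 1.30 (adjusted p = 0.329), and neither passed. Without E10.5 replicate 1, 6 of 45 members passed in that comparison (Itga4, Itgal, Itgb2, Itga1, Cdh2 and Itgb8), where 10.6% of all genes passed, a share near that of the members.

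The other named members passed once and lost the call when some arrays were left out (Cdh4 and Cdh7), or did not pass (Cdh16 and Cdh3). Cdh4, R-cadherin, was lower in E13.5 females (5.96 and 5.76) than at E10.5 (6.88 and 7.25). The log2 difference was -1.21 (SE 0.36, adjusted p = 0.044). That call was lost when any 1 of the 4 arrays was left out, and without the 2 arrays of high Gapdh difference. The mean of its 3 probe sets gave 0.03. Cdh7 was 0.77 and 3.13 in E13.5 males and 4.21 and 3.94 at E10.5, dim throughout, with a log2 difference of -2.13 (adjusted p = 0.0469) that was -0.94 without E13.5 male replicate 1. Cdh16, a cadherin of kidney epithelium, was 6.91 on E11.5 replicate 2 and at most 4.98 on every other array. Cdh3, P-cadherin, gave 5.37 and 4.73 in E13.5 males and 6.28 and 6.79 in E12.5 males, a difference of -1.49 (adjusted p = 0.257).

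**Figure D4:**
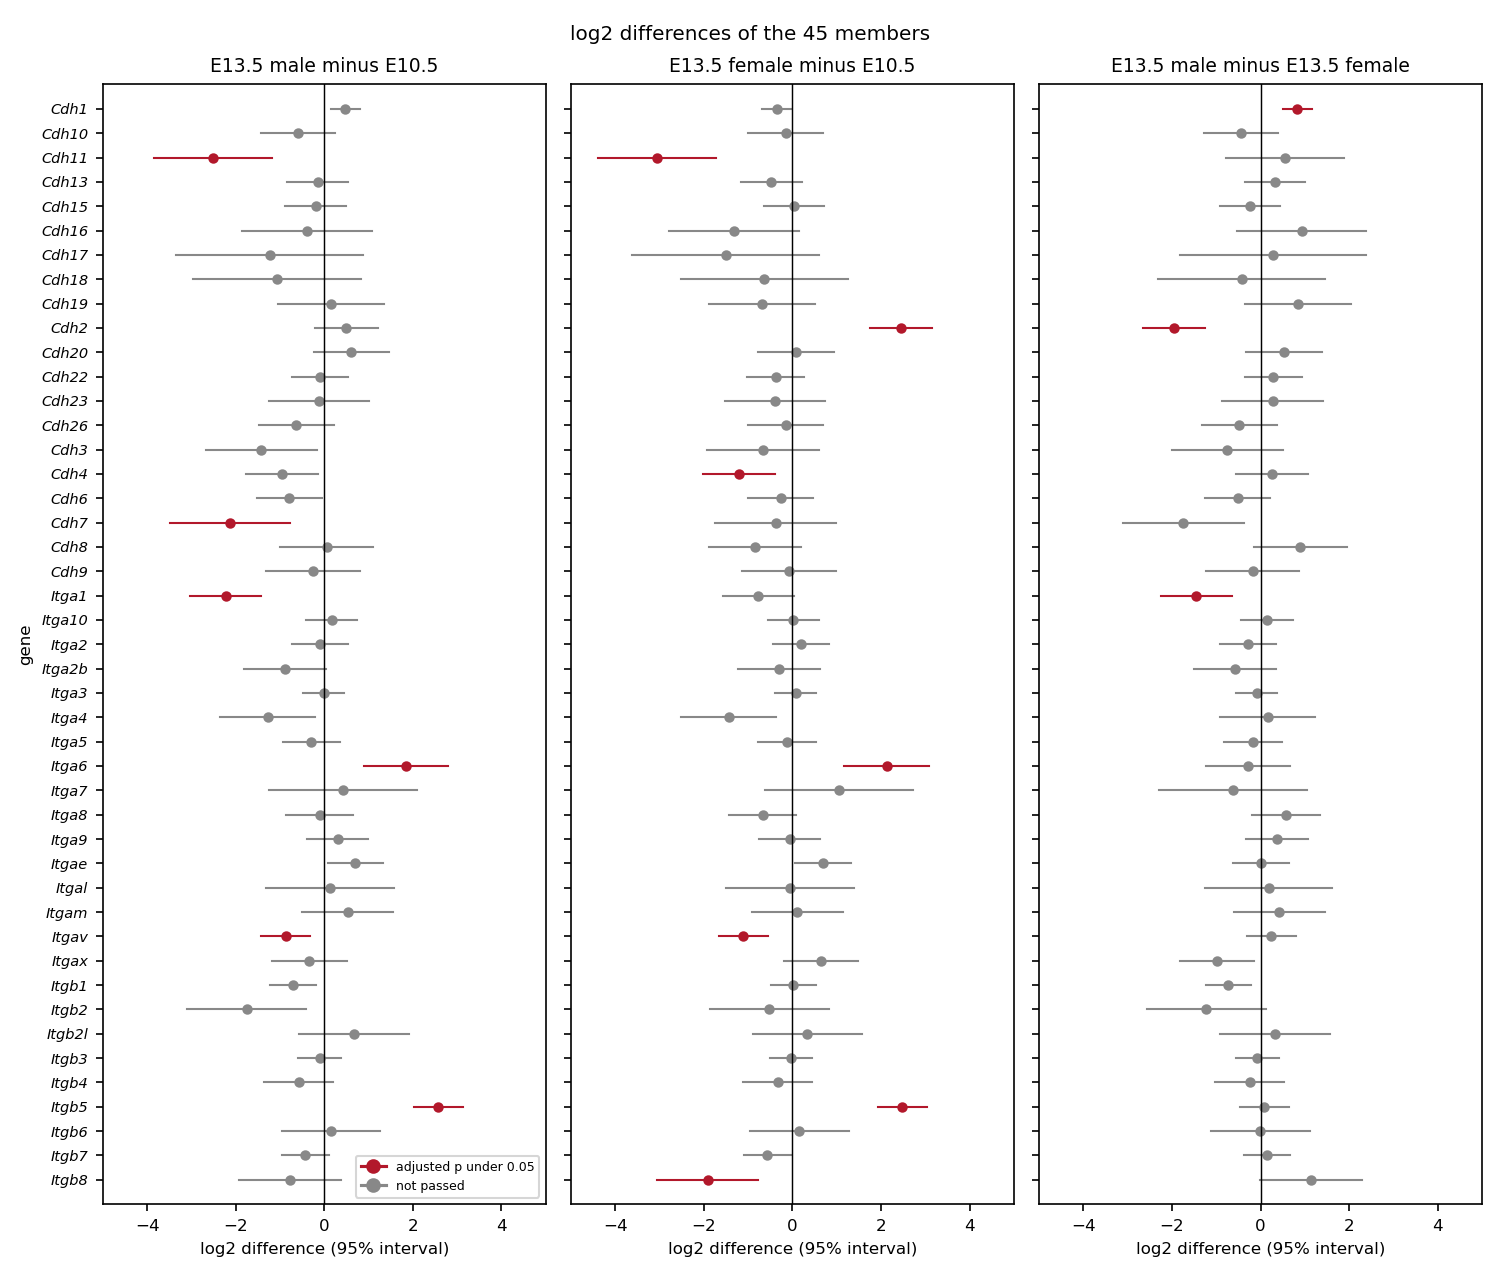
Log2 difference of each of the 45 members with its 95% interval (limma) for E13.5 males minus E10.5, E13.5 females minus E10.5, and E13.5 males minus E13.5 females, with members whose adjusted p is under 0.05 in red. Red points number 6, 7 and 3 in the 3 panels, with Itgb5 at 2.57 and 2.49 in the first and second, and Cdh2 at -1.96 in the third.

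The proteins that work with these receptors were followed as 3 lists. Their calls come from the main fit only and were not refitted under other settings or with arrays left out. Of the cadherin partners, 15 genes were measured, and catenins and nectins are among them. For E13.5 males against females, where 10.2% of all genes passed, 1 rose (Nectin1, 1.34) and 1 fell (Pkp4, a plakophilin, -0.72). E13.5 females against E10.5 gave 2 higher (Ctnnd2, 1.71, and Nectin3, 0.75) and 1 lower (Nectin2, -2.34). Of all genes, 17.8% passed there, a share near that of the list. E13.5 males against the same E10.5 arrays gave 3 higher (Ctnnd2, Nectin1 and Nectin3) and 3 lower (Vcl, Pkp4 and Nectin2), with Nectin2 at -1.99. In that comparison 12.7% of all genes passed. The list passed nowhere else.

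Of the integrin adaptors, which join the beta chain's tail to actin, 15 were measured. Fermt3, the kindlin of blood cells, was lower in E13.5 females than at E10.5 (log2 difference -2.39) and likewise in E13.5 males (-2.40). Against E12.5 of the same sex the difference was -1.91 in females (adjusted p = 0.0337) and -1.67 in males (adjusted p = 0.0488). In those steps 1.91% of all genes passed in females and 2.10% in males. In females against E10.5, Tln2 (0.92) and Ilk (0.92) were higher and Tln1 (-1.14) and Vasp (-2.09) lower. In males against E10.5, Fermt2 was also lower (-0.71). Between the sexes at E13.5, 2 of 15 passed, near the 10.2% of all genes, both lower in males: Tln2, a talin (log2 difference -0.94), and Ilk, integrin-linked kinase (-0.67). The median of the list in that comparison was -0.57, against -0.02 over all genes. No adaptor passed in the other comparisons.

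Of the integrin ligands, 19 were measured. In E13.5 males against E13.5 females, 3 were higher and 3 lower, 13 did not pass, and the list median was -0.07, where 10.2% of all genes passed. At that stage Nid1, nidogen, averaged 7.33 in males and 4.59 in females (log2 difference 2.75, SE 0.27), and Lama3 (0.93) was also higher. Icam2 passed as higher too, but was dim in both sexes, with means of 4.18 in males and 2.29 in females. Lama1, the laminin alpha 1 chain, averaged 5.32 in males and 8.85 in females (log2 difference -3.54, SE 0.48). Npnt, nephronectin, averaged 7.69 in males and 11.05 in females (log2 difference -3.37, SE 0.35), and Lamb2 was also lower (-2.55). At E12.5, Lama1 (-2.22, adjusted p = 0.0405) and Lamb2 (-1.32, adjusted p = 0.0432) were already lower in males, where 2.39% of all genes passed. Nid1 was higher there (1.20, adjusted p = 0.0496), and these calls lay close under the threshold of 0.05. Against E10.5, E13.5 females had 3 higher (Lama1, Lamb1 and Lamb2) and 4 lower (Lama4, Nid1, Vcam1 and Icam2), where 17.8% of all genes passed. E13.5 males against the same arrays had 3 higher (Lama3, Lamb1 and Icam1) and 2 lower (Lamc1 and Npnt), where 12.7% of all genes passed. The remaining passes were steps between neighbouring stages. Lama1 (2.27, adjusted p = 0.0451) and Lamb2 (1.56, adjusted p = 0.029) were higher in E13.5 than in E12.5 females. Lama3 was higher in E13.5 than in E12.5 males (0.99, adjusted p = 0.0488) and at E10.5 than at E9.5 (1.41, adjusted p = 0.0266). In these comparisons, in that order, 1.91%, 2.10% and 1.06% of all genes passed.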

How the data were processed

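Biotin-labelled cRNA from amplified cDNA was hybridized to Affymetrix arrays, per the labels' protocols. The deposited values are log2 probe set signals that the authors normalized over all 14 arrays, per the series' design text. Values ran from 0 to 14.04, which is how the log2 scale was recognised, and the normalization software is not given in the sources used here. Of 45101 probe sets, 34958 carried 1 gene symbol, and those with several symbols or none were left out. The members had 94 probe sets, 33 with a mean above the table median.

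All 18194 genes entered linear models in limma 3.58.1 (R 4.3.3), with group means as terms and variances moderated along an intensity trend. A fit to the 12 arrays of E10.5 and later served 10 comparisons; the comparison of E10.5 with E9.5 used a fit to all 14. P-values are two-sided. The number of arrays limits the precision. The scripts were tested on simulated data. Members named individually passed in some comparison, or differed by at least 1 log2 in a neighbouring step or between the sexes without overlap and above the median. Cdh1 and Itgb1 were named in any case, and Itgb2, Itga2b, Itgb3 and Itga5 were added after their values were seen. Members, lists and tests were chosen with earlier results of these data known.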

Additional observations from a re-analysis of the deposited data

How the results depend on the processing

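The counts of members passing were recomputed with another normalization, filter, probe set rule or model, and with single arrays left out. A fit of the compared groups alone gave 0 for E10.5 against E9.5, E12.5 females against E11.5 and E13.5 against E12.5 females. It gave 3 for E13.5 females and 1 for E13.5 males against E10.5, and 1 for E12.5 males against females. The shares of all genes it called were 0%, 0.22%, 1.69%, 5.39%, 3.11% and 4.21%, in that order. Array weights gave 0 for E10.5 against E9.5, 3 for E12.5 females and 1 for E12.5 males against E11.5. In E13.5 against E12.5 they gave 2 in females and 3 in males. They also gave 3 for E13.5 males against E10.5 and 1 for E12.5 males against females. With these weights 0.264%, 4.08%, 1.32%, 5.6%, 4.39%, 8.76% and 7.22% of all genes passed, in that order. The mean of all probe sets gave 0 for E12.5 females against E11.5 and for E13.5 against E12.5 in each sex. It gave 3 for E13.5 males against E10.5. Of all genes, 1.23% passed in the first, 1.24% (females) and 1.53% (males) in the next, and 10% in the last. Without the intensity trend, E12.5 females against E11.5 and E13.5 against E12.5 females gave 0, where 0.698% and 0.907% of all genes passed. Leaving out dim genes gave 1 for E12.5 males against E11.5 and 4 for E13.5 females against E10.5. Of the genes kept, 1.89% and 29.6% passed there. Median centring gave 1 for E12.5 males against E11.5, where 1.1% of all genes passed. Without the 2 arrays of high Gapdh difference, an alternative chosen after seeing the data, E13.5 against E12.5 females gave 0. With single arrays left out, the counts ranged from 0 to 6 for E10.5 against E9.5, 0 to 1 for E12.5 males and for E12.5 females against E11.5, 0 to 0 for E13.5 against E12.5 females, 0 to 2 for E13.5 against E12.5 males, 3 to 7 for E13.5 females and 2 to 7 for E13.5 males against E10.5, and 1 to 4 for E13.5 males against females; they were 0 for E11.5 against E10.5, for E12.5 males against females and for the change of the sex difference.

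Whether replicate numbers pair the samples is not given in the sources used here and could not be settled from the values. Over 15 pairs of the 6 groups from E10.5 on, deviations of replicate 1 correlated across genes at -0.19 to 0.28, with 2 pairs over 0.1. These correlations had no reference value to be judged against. At E13.5 the Gapdh difference was 3.09 and 3.16 on the replicate 2 arrays and 1.23 and 1.57 on the replicate 1 arrays. With the replicate number as a block, 7 members passed for E13.5 females against E10.5, with Itga4 in place of Cdh4. In that fit 4 passed for E13.5 males against E10.5, without Itgav and Cdh7, and 3 for E13.5 males against females. The shares of all genes passing were 18.1%, 13% and 10.4%, in that order. For the named members, 411 values under an alternative kept direction and side of the threshold, 83 lost the call, 15 gained one and 2 turned direction, both with the mean of all probe sets: Cdh4 at 0.0333 in E13.5 females against E10.5 and Itga1 at 0.34 in E13.5 males against females. The cause was not tested. Fits without an array in a group of 2 assume that the lone array varies like the others.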
